A study of Mus musculus with 10 samples.

Results

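Blood vessels in a tumour are lined by endothelial cells, and 40 genes of these cells and of the signals that make vessels grow were followed here, out of 39017 genes in the count table. The members were the rows that carry the symbols of a list made by gene function, with no cut on a measured value. All 40 were found and all 40 passed the filter on low counts, among 16216 genes tested. RNA was sequenced in 5 libraries from lung tumours of KP mice and 5 from those of KPG1 mice. Both groups were male C57BL/6 mice carrying the same tumour-initiating alleles, activated by an adenovirus that expresses Cre from the SPC promoter, and tumours were taken 18 weeks and 6 days later. KPG1 mice were in addition homozygous for floxed Glut1, the glucose transporter gene Slc2a1. The KP controls are labelled heterozygous for that floxed allele in one place and wild type in another. The SPC promoter is active in surfactant-producing epithelial cells, so Cre was directed to the epithelium and not to the endothelium. Cells were dissociated and depleted magnetically of CD45+ leukocytes, and each library holds what was left: tumour epithelium together with vessels and stroma.

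Endothelial cells grow new vessels when vascular endothelial growth factor (VEGF) binds the receptor tyrosine kinases Flt1, Kdr and Flt4, with Nrp1 as a co-receptor. The receptors Tek and Tie1, which answer to the angiopoietins, govern the quiescence and stability of the vessel. In a growing sprout Dll4 on the leading tip cell activates Notch in its neighbours. The identity of the cell is kept by transcription factors of the ETS family, among them Erg and Fli1, and of the SOX family.

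The question was whether vessel genes differed between tumours with and without the transporter. None of the 40 members passed the threshold (limma, adjusted p under 0.05 over all genes tested), where 0.173% of the genes tested did. The estimates were higher in KPG1 for 38 of 40 members, against 52.7% of all genes tested, with a median log2 fold change of 0.32 beside 0.02 over all genes. Only Prox1 and Sele had estimates below 0. Most members were lowest in KP 5 and highest in KPG1 1, and the direction changed with these libraries. Without KP 5 alone, or KPG1 1 alone, 28 of 40 estimates were above 0, with medians of 0.081 and 0.090. Without both, 12 of 40 were above 0 and the median was -0.12. With a weight per library 15 of 40 were above 0 and the median was -0.098. KP 5 and KPG1 1 were picked after the data were seen, as lowest and highest for most members. Leaving them out therefore had to lower most of these estimates. The median over all genes was -0.0092 without both and 0.022 with the weights. In bulk samples fewer endothelial cells and less RNA per cell cannot be told apart.

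At an unadjusted p under 0.05 limma named 5 members as higher, where 5.26% of genes tested were higher at that level, and 0 as lower, where 6.31% were. edgeR's quasi-likelihood test and DESeq2 called 0 members at an adjusted p under 0.05, where they called 0.247% and 3.38% of all genes. At an unadjusted p under 0.05 in either direction they named 5 and 6 of 40 members, where they named 12.5% and 14% of all genes. The ranges of the groups overlapped for all 40 members on log2 CPM, while 2.81% of the genes tested had groups that did not overlap.

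Depth was 32427029 to 49534284 counts per library, and the lowest count of any member in any library was 24. Slc2a1 itself was lower in KPG1, with 40.8 to 66.8 CPM (counts scaled to library size with TMM factors) against 71.7 to 126.9 in KP, and the groups did not overlap. Its log2 fold change was -1.01 (SE 0.20, adjusted p = 0.0675), and an exact two-sided permutation test over all rearrangements gave p = 0.00794, the smallest the design allows. A further 12 endothelial markers outside the list were all detected and tested, with summed CPM between 272 and 702 among KP libraries and between 408 and 1078 among KPG1 libraries. The epithelial marker Epcam lay at 327.5 to 550.9 CPM and the leukocyte marker Ptprc at 4.58 to 11.6 CPM. The highest values of the other leukocyte markers ran from 0.192 CPM for Cd3e to 32.9 CPM for Cd68.

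The sequences just before the start sites are shown for 3 members because the list holds ETS and SOX factors and their possible targets together. RefSeq promoters (GRCm38.p6) were found for 23 of 40 members, 29 promoters in all. The ETS letters CNGGAAG, searched on both strands in the 250 bases before the start, occurred in 17 of 29 member promoters (58.6%) and in 26.6% of all 32851 promoters. The GATA letters AGATAA occurred in 2 of 29 (6.90%) against 9.99% of all, and the SOX letters ACAAAG or ACAATG in 8 of 29 (27.6%) against 25.2%. These motifs were chosen after the values were seen, several promoters belong to the same gene, and a match is a string of letters and not a bound site. Shown 5′ to 3′ with ETS matches in capitals are Flt1 with 1 match (chr5:147726012-147726261, minus strand), Apln with 2 (chrX:48034854-48035103, minus strand) and Tek with none (chr4:94739039-94739288, plus strand).
Flt1: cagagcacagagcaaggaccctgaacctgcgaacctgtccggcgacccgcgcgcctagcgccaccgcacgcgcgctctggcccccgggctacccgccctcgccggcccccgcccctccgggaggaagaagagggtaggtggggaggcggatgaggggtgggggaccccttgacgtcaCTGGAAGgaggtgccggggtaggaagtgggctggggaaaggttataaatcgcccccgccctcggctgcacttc
Apln: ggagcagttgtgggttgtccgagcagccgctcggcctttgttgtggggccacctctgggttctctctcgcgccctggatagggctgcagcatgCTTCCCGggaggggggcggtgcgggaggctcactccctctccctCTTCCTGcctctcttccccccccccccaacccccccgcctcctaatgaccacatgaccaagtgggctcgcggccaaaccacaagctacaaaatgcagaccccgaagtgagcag
Tek: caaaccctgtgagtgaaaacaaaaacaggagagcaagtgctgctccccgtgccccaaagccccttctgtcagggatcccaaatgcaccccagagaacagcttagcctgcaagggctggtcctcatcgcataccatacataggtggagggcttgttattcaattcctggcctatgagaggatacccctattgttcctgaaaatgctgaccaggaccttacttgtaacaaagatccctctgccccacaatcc

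**Figure D1:**
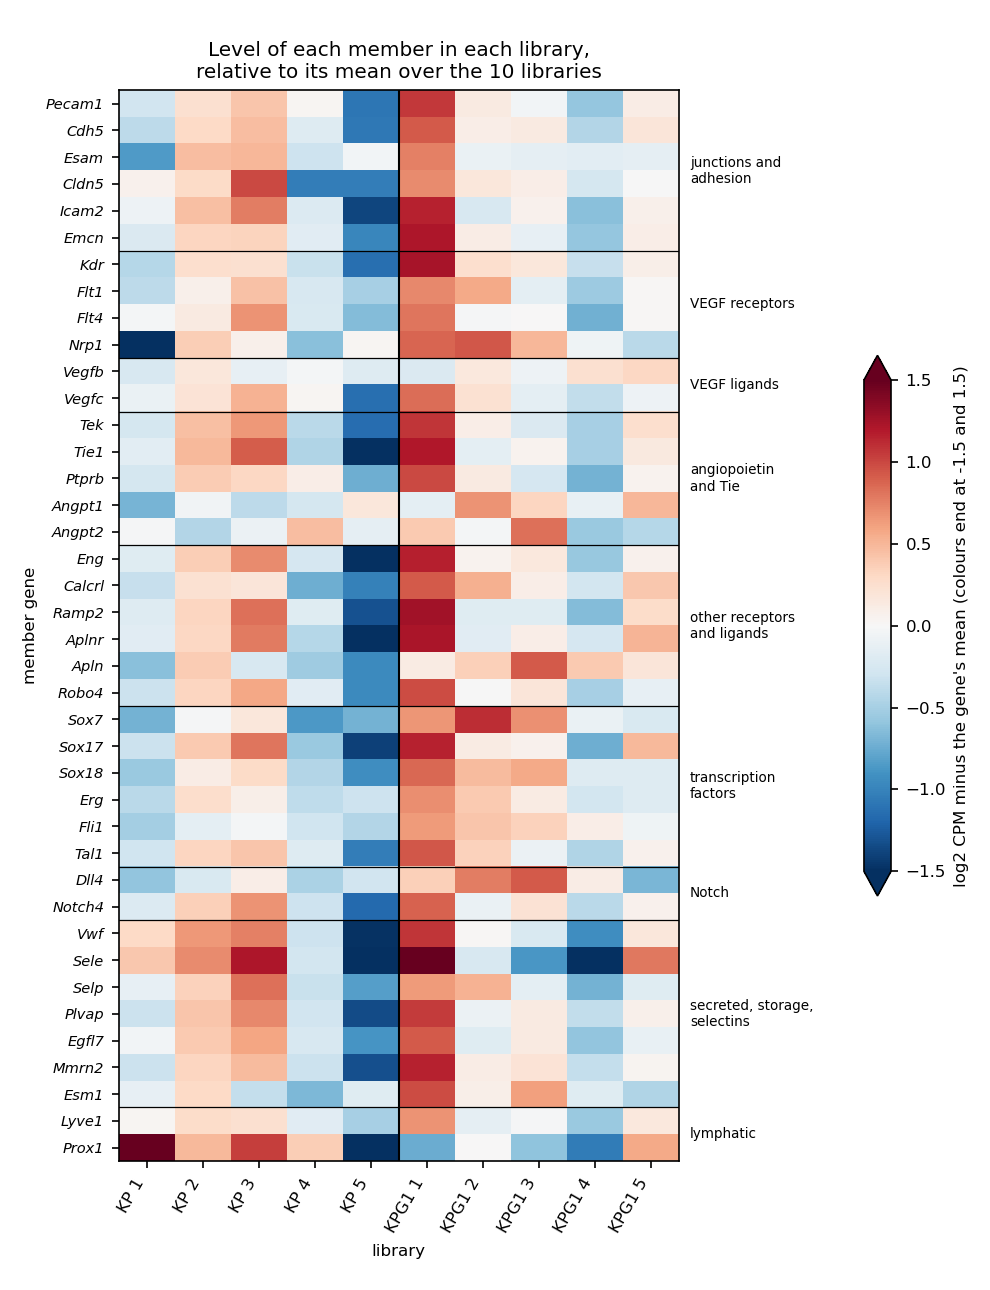
Level of each of the 40 members (rows, grouped by role) in each of the 10 libraries (columns), as log2 CPM minus the gene's mean over all libraries; red is above and blue below that mean. KP 5 is the lowest library for 27 members and KPG1 1 the highest for 30, and a few rows such as Nrp1, Vegfb, Angpt1 and Dll4 show another order.

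Most genes of the endothelial junction shared an order from library to library. Pecam1, the adhesion molecule CD31 (ENSMUSG00000020717, chr11:106654217-106750628), showed this plainly, for its CPM was 119.8, 173, 195, 149 and 68.9 in KP 1 to 5 and 306, 160.2, 142, 97.9 and 158 in KPG1 1 to 5. Gene positions here and after are of build mm10. KP 5 was lowest and KPG1 1 highest, while the other 8 libraries of the 2 groups were interleaved. Means were 141 ± 49.05 CPM for KP and 173 ± 78.5 CPM for KPG1 (SD, n = 5 each), a log2 fold change of 0.27 (SE 0.33, adjusted p = 0.791). Cdh5, the VE-cadherin that holds endothelial cells together (ENSMUSG00000031871, chr8:104101625-104144511), had the same order at its ends, and its CPM was 106, 172, 193, 122 and 66.5 in KP 1 to 5 and 264, 149.8, 153, 103 and 159 in KPG1 1 to 5. The groups overlapped, and the means of 132 ± 50.8 CPM for KP and 166 ± 59.4 CPM for KPG1 (SD, n = 5 each) gave a log2 fold change of 0.36 (SE 0.30, adjusted p = 0.687). The other junction and adhesion genes were the tight junction protein Cldn5 (log2 fold change 0.34), the adhesion molecules Icam2 (0.23) and Esam (0.092), and the sialomucin Emcn (0.31). All 6 were above 0 with all 10 libraries, and without KP 5 and KPG1 1 all 6 were below 0, from -0.43 for Icam2 to -0.082 for Cldn5.

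The VEGF receptors did not all follow the same order. For Kdr, the main signalling receptor for VEGF-A (ENSMUSG00000062960, chr5:75932827-75978458), its CPM was 66.4, 107, 106, 70.8 and 40.7 in KP 1 to 5 and 211, 107, 101, 70.2 and 94.99 in KPG1 1 to 5. KPG1 1 stood at the top and KP 5 at the bottom, and the other libraries overlapped. The means were 78.1 ± 28.2 CPM for KP and 117 ± 54.6 CPM for KPG1 (SD, n = 5 each), with a log2 fold change of 0.56 (SE 0.32, adjusted p = 0.526), and without KP 5 and KPG1 1 the estimate was 0.076. Flt1, a high-affinity receptor that also acts as a decoy (ENSMUSG00000029648, chr5:147561604-147726011), differed less between libraries, and its CPM was 97.3, 135, 174, 108 and 90.4 in KP 1 to 5 and 210.4, 189, 116, 87.4 and 129 in KPG1 1 to 5. KPG1 4 was the lowest library and KPG1 1 the highest, so the spread of KPG1 took in all of KP. Means were 121 ± 34.3 CPM for KP and 146 ± 51.6 CPM for KPG1 (SD, n = 5 each), with a log2 fold change of 0.24 (SE 0.26, adjusted p = 0.756). Flt4, the receptor for VEGF-C (ENSMUSG00000020357, chr11:49609263-49652739), was nearly level between the groups, and its CPM was 16.6, 18.7, 27.3, 14.6 and 10.9 in KP 1 to 5 and 29.8, 16.9, 17.1, 10.3 and 17.3 in KPG1 1 to 5. KPG1 4 and KP 5 were lowest and KPG1 1 was highest. Its means were 17.6 ± 6.15 CPM for KP and 18.3 ± 7.07 CPM for KPG1 (SD, n = 5 each), a log2 fold change of 0.076 (SE 0.29, adjusted p = 0.941).

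Nrp1, the co-receptor (ENSMUSG00000025810, chr8:128358604-128503363), kept an order of its own, and its CPM was 61.3, 255, 209, 129 and 203 in KP 1 to 5 and 363, 378, 280.2, 190.3 and 150.3 in KPG1 1 to 5. Here KP 1 was the lowest library, KP 5 was the third highest of its group, and KPG1 2 was the highest. Its means were 172 ± 76.5 CPM for KP and 272 ± 101 CPM for KPG1 (SD, n = 5 each), a log2 fold change of 0.73 (SE 0.39, adjusted p = 0.499), and the estimate without KP 5 and KPG1 1 was 0.67. Of the ligands on the list, Vegfc, which acts on Flt4, had a log2 fold change of 0.22 and Vegfb, a ligand of Flt1, one of 0.17. Vegfb was the steadiest member, with 19.1 to 25.4 CPM in KP and 19.3 to 27.9 in KPG1. Vegfa, the main ligand of Kdr and no member, averaged 524 ± 105 CPM for KP and 411 ± 47.7 CPM for KPG1 (SD, n = 5 each), and its log2 fold change was -0.35 (SE 0.18, adjusted p = 0.484).

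**Figure D2:**
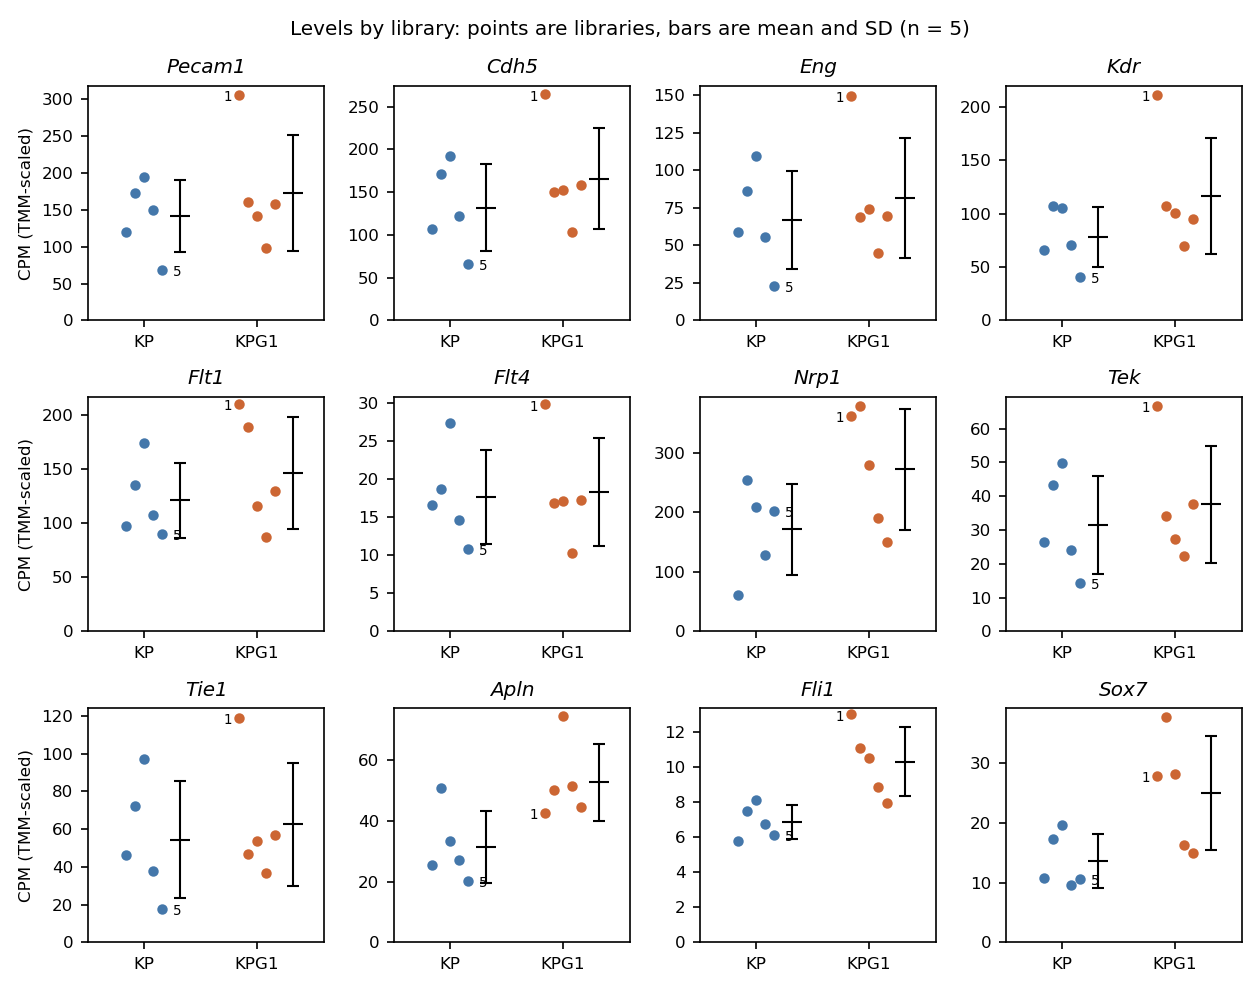
TMM-scaled CPM (linear axes from 0) of 12 members in the 5 KP (blue) and 5 KPG1 (orange) libraries, with mean and SD beside the points; the digits 5 and 1 mark KP 5 and KPG1 1. Every panel shows groups that overlap, and Fli1 comes closest to separation, with a highest KP library of 8.12 and a lowest KPG1 library of 7.96.

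In the angiopoietin branch the receptors and their ligands had different orders of libraries. Tek, the angiopoietin receptor (ENSMUSG00000006386, chr4:94739289-94874976), followed the junction genes, and its CPM was 26.3, 43.2, 49.7, 23.99 and 14.3 in KP 1 to 5 and 66.7, 34.05, 27.3, 22.4 and 37.8 in KPG1 1 to 5. KPG1 1 was highest and KP 5 lowest. Means were 31.5 ± 14.6 CPM for KP and 37.6 ± 17.3 CPM for KPG1 (SD, n = 5 each), with a log2 fold change of 0.32 (SE 0.36, adjusted p = 0.777). For Tie1, its partner receptor (ENSMUSG00000033191, chr4:118471191-118490061), its CPM was 46.3, 72.4, 97.4, 37.8 and 17.7 in KP 1 to 5 and 119, 46.6, 53.5, 36.6 and 57.1 in KPG1 1 to 5. The range from KP 5 to KPG1 1 was 6.72-fold, wider than that of Tek at 4.67-fold. Its means were 54.3 ± 31.04 CPM for KP and 62.6 ± 32.5 CPM for KPG1 (SD, n = 5 each), with a log2 fold change of 0.32 (SE 0.44, adjusted p = 0.822). The phosphatase Ptprb, which acts on Tek, had a log2 fold change of 0.083. The ligands were Angpt1, an activator of Tek usually made by cells around the vessel (0.51), and Angpt2, which endothelial cells release on activation (0.098). Angpt1 was lowest in KP 1 and highest in KPG1 2, and Angpt2 was lowest in KPG1 4 and highest in KPG1 3.

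Among the other receptors, Eng, the TGF-beta co-receptor endoglin (ENSMUSG00000026814, chr2:32646595-32682669), kept to the common order, and its CPM was 58.6, 86.2, 109, 55.8 and 23.2 in KP 1 to 5 and 149.7, 68.7, 74.2, 44.9 and 69.4 in KPG1 1 to 5. The groups overlapped. Means were 66.6 ± 32.6 CPM for KP and 81.4 ± 39.9 CPM for KPG1 (SD, n = 5 each), with a log2 fold change of 0.35 (SE 0.41, adjusted p = 0.779). Calcrl, the receptor for adrenomedullin when paired with Ramp2 (ENSMUSG00000059588, chr2:84330626-84425411), had one of the 5 smallest p-values, and its CPM was 54.6, 81.3, 78.7, 41.6 and 34.4 in KP 1 to 5 and 132, 100.05, 74.4, 57.2 and 91.7 in KPG1 1 to 5. Its 2 lowest libraries were KP 5 and KP 4, and KPG1 4 lay between KP 1 and KP 3. The means were 58.1 ± 21.3 CPM for KP and 90.99 ± 28.1 CPM for KPG1 (SD, n = 5 each), a log2 fold change of 0.68 (SE 0.28, adjusted p = 0.382), and 0.33 was the estimate without KP 5 and KPG1 1. The partner Ramp2 did not share the size of that estimate, at 0.27, and a test of the difference between them was not made. Robo4, a guidance receptor of endothelium, was at 0.24.

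Apln, the peptide apelin, which tip cells make (ENSMUSG00000037010, chrX:48025146-48034853), had the smallest p-value of the 40, and its CPM was 25.3, 50.9, 33.2, 27.01 and 20.2 in KP 1 to 5 and 42.7, 50.2, 74.4, 51.4 and 44.5 in KPG1 1 to 5. All KPG1 libraries lay above 4 of the 5 KP libraries, and KP 2 lay among them. Means were 31.3 ± 11.9 CPM for KP and 52.6 ± 12.7 CPM for KPG1 (SD, n = 5 each), a log2 fold change of 0.81 (SE 0.24, adjusted p = 0.234), and without KP 5 and KPG1 1 the estimate was 0.70. Its receptor Aplnr had an estimate of 0.60 with all libraries and -0.099 without those 2.

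All 6 transcription factors had estimates above 0, and 3 of the 5 smallest p-values were theirs. Fli1, an ETS factor (ENSMUSG00000016087, chr9:32422204-32542861), was measured at 5.81, 7.51, 8.12, 6.75 and 6.13 CPM in KP 1 to 5 and 13.02, 11.1, 10.6, 8.89 and 7.96 in KPG1 1 to 5. Only KP 3 reached into the range of KPG1, where it exceeded KPG1 5. Means were 6.87 ± 0.954 CPM for KP and 10.3 ± 1.98 CPM for KPG1 (SD, n = 5 each), a log2 fold change of 0.59 (SE 0.18, adjusted p = 0.253). For Sox7, a SOX factor of endothelium (ENSMUSG00000063060, chr14:63943673-63950732), its CPM was 10.7, 17.3, 19.7, 9.63 and 10.7 in KP 1 to 5 and 27.8, 37.8, 28.3, 16.3 and 14.9 in KPG1 1 to 5. KPG1 4 and KPG1 5 fell within the range of KP and the other 3 KPG1 libraries lay above it. The means were 13.6 ± 4.56 CPM for KP and 25.04 ± 9.48 CPM for KPG1 (SD, n = 5 each), with a log2 fold change of 0.89 (SE 0.30, adjusted p = 0.295). Sox18, its relative with a role in lymphatic development (ENSMUSG00000046470, chr2:181669836-181671640), was similar, and its CPM was 6.13, 9.77, 11.03, 6.61 and 4.71 in KP 1 to 5 and 16.4, 12.6, 13.4, 7.86 and 7.91 in KPG1 1 to 5. KPG1 4 and KPG1 5 again lay among the KP libraries. Means were 7.65 ± 2.65 CPM for KP and 11.6 ± 3.70 CPM for KPG1 (SD, n = 5 each), a log2 fold change of 0.65 (SE 0.29, adjusted p = 0.418). The rest were Sox17 (0.50), Erg (0.33) and Tal1 (0.35). Without KP 5 and KPG1 1 the estimates of Fli1, Sox7, Sox18 and Erg were 0.42, 0.72, 0.31 and 0.11, while those of Sox17 and Tal1 were -0.089 and -0.12.

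Of the Notch genes, the tip cell ligand Dll4 had a log2 fold change of 0.60, with its highest value in KPG1 3 (58.3 CPM) and its lowest in KPG1 5 (19.2 CPM). The endothelial receptor Notch4 was at 0.30 and kept the common order. The secreted and stored products, the selectins and Plvap had estimates from 0.031 to 0.50, apart from Sele. They were Vwf, the von Willebrand factor of clotting (0.031), P-selectin Selp (0.091), Egfl7 (0.091), Plvap, which forms the diaphragms of fenestrae (0.33), the matrix protein Mmrn2 (0.50) and the tip cell proteoglycan Esm1 (0.45). Sele, the E-selectin of inflamed vessels (ENSMUSG00000026582, chr1:164048234-164057677), was 1 of the 2 members with an estimate below 0, and its CPM was 5.72, 7.07, 10.01, 3.54 and 1.22 in KP 1 to 5 and 13.2, 3.62, 2.33, 1.43 and 7.50 in KPG1 1 to 5. Its range was 10.9-fold and both groups spanned most of it. Means were 5.51 ± 3.35 CPM for KP and 5.62 ± 4.84 CPM for KPG1 (SD, n = 5 each), a log2 fold change of -0.041 (SE 0.67, adjusted p = 0.988).

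Of the lymphatic genes, Lyve1, a hyaluronan receptor, was at 0.065. Prox1, the factor that specifies lymphatic endothelium (ENSMUSG00000010175, chr1:190118035-190170714), was the lowest member per length, and its CPM was 6.97, 2.89, 4.26, 2.67 and 0.551 in KP 1 to 5 and 1.20, 2.07, 1.34, 0.972 and 3.08 in KPG1 1 to 5. KP 5 was the lowest library and the other 4 KP libraries lay above 4 of the 5 KPG1 libraries. The means were 3.47 ± 2.37 CPM for KP and 1.73 ± 0.859 CPM for KPG1 (SD, n = 5 each), a log2 fold change of -0.71 (SE 0.62, adjusted p = 0.695).

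**Figure D3:**
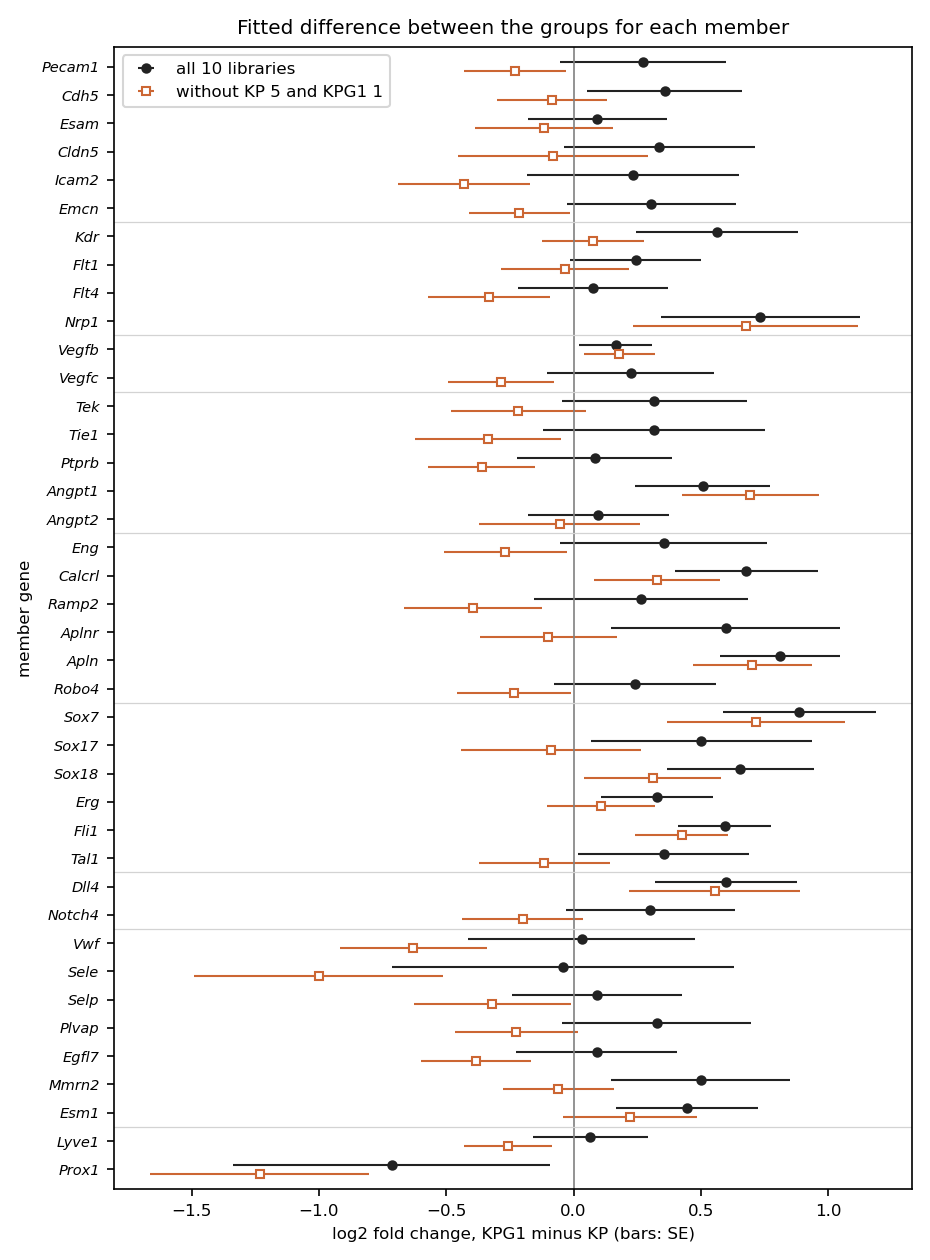
Fitted log2 fold change (KPG1 minus KP) with its SE for each member, in all 10 libraries (filled circles) and without KP 5 and KPG1 1 (open squares), a choice of libraries made after the data were seen. With all libraries 38 of 40 points lie right of 0, and without the 2 libraries 12 of 40 do.

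Divided by exon length, the mean levels over the 10 libraries ran from 42.3 RPKM (CPM per kilobase of exon) for Plvap, followed by 35.4 for Cdh5, 30.96 for Esam and 25.2 for Pecam1, down to 0.920 for Tal1, 0.320 for Angpt1 and 0.310 for Prox1. Among the VEGF receptors, Nrp1 stood at 22.7 RPKM, Kdr at 10.8, Flt1 at 9.91 and Flt4 at 2.18. Over the libraries Flt1 ran from 6.47 to 15.6 RPKM, inside the range of Kdr, which was 4.51 to 23.4 RPKM.

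These genes varied widely between libraries of the same genotype. The median SD of log2 CPM over the members was 0.59 in KP and 0.56 in KPG1, beside 0.39 and 0.26 over all genes tested. In KPG1 39 of 40 members varied more than the median gene, and in KP 31 of 40 did. KP 5 was the lowest KP library for 30 of 40 members, where it was for 30.7% of all genes, and KPG1 1 was the highest of all libraries for 30 of 40, where it was for 11.2%. Without KPG1 1 the median SD in KPG1 was 0.34, and without KP 5 that in KP was 0.41. Both libraries were picked after the data were seen, as extremes for most members, so a fall was built in. The medians over all genes in these smaller sets are not given here.

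To express each member per unit of endothelial RNA, the mean log2 CPM of Cdh5, Tie1, Robo4 and Mmrn2 was subtracted within each library. This core lay between 4.45 and 6.28 among KP libraries and between 5.22 and 6.73 among KPG1 libraries, a range of 3.55-fold and 2.85-fold. Of the other 36 members, 26 (72.2%) varied less within the groups after the subtraction, against 11.5% of all genes tested. The median SD of the 36 went from 0.56 to 0.30, and that of all genes tested from 0.35 to 0.75. The core was taken from the same list, so a fall for genes that vary with it was built in. Plvap went from 0.68 to 0.077, Notch4 from 0.60 to 0.084, Kdr from 0.58 to 0.13 and Eng from 0.75 to 0.13. These 4 members kept close to the core within both groups. The other 10 varied more after it, namely Nrp1, Vegfb, Angpt1, Angpt2, Apln, Sox7, Erg, Fli1, Dll4 and Esm1. Of these 10, those known from tip cells and activated endothelium include Apln, Dll4, Esm1 and Angpt2. The rest are the co-receptor Nrp1, the ligands Vegfb and Angpt1, and the transcription factors Sox7, Erg and Fli1. Other genes of vessel growth and activation varied less, among them Kdr, Flt1 (0.46 to 0.38), Flt4 (0.51 to 0.22) and Sele (1.21 to 0.70). A part of tip cells in this was not tested. Vegfb went from 0.20 to 0.70 and Angpt1 from 0.35 to 0.83.

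Relative to the core, the groups overlapped for all 36 members, where 1.22% of genes tested had groups that did not overlap. The median difference between the groups, KPG1 minus KP, was -0.048 on this log2 scale. Without KP 5 and KPG1 1, libraries chosen after the data were seen, 6 of 36 members no longer overlapped, where 4.42% of genes tested did not: Kdr, Calcrl, Apln, Sox7 and Angpt1 were above KP and Icam2 was below. With a core of Cd34, Cd93, Rasip1 and Acvrl1, Egfl7 alone of the 36 did not overlap, and it was lower in KPG1, where 1.81% of genes tested did not overlap.

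**Figure D4:**
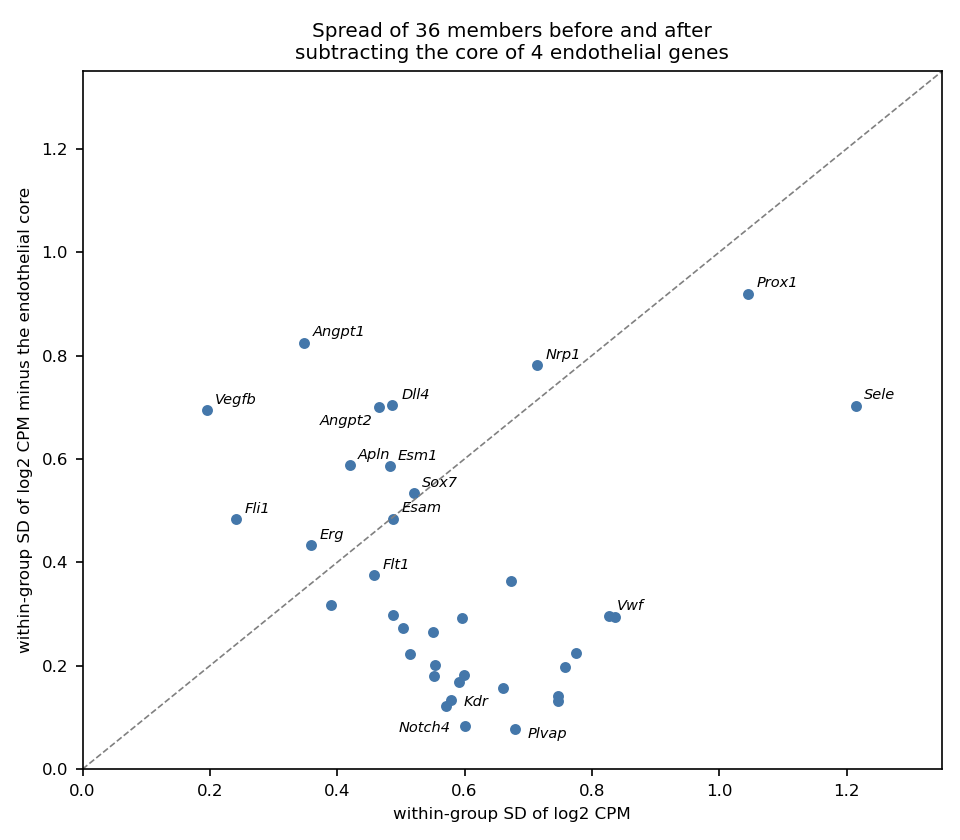
Within-group SD of log2 CPM (pooled over the 2 groups) for the 36 members outside the core, before (horizontal) and after (vertical) subtracting the core in each library; the dashed line marks equal spread. The 26 points under the line vary less after the subtraction, with Plvap at 0.077, and the 10 above it vary more.

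Other genes of the pathway, 70 in a list, were tested in 64 cases. The list holds ligands, receptors, Notch and guidance genes, inhibitors, transcription factors and signalling genes. The threshold was passed by 0.173% of all genes tested, in either direction. Of the 64, 0 passed it as higher and 1 as lower in KPG1. That was Klf4, a transcription factor of endothelium and epithelium, averaging 326 ± 72.1 CPM for KP and 126 ± 32.4 CPM for KPG1 (SD, n = 5 each), with a log2 fold change of -1.39 (SE 0.22, adjusted p = 0.0378). The call of Klf4 was lost in 9 of the 10 fits that left out 1 library, all but that without KP 5, with adjusted p from 0.0307 to 0.132 and log2 fold changes from -1.51 to -1.27. It was also lost with the replicate block (adjusted p = 0.0840) and with the sample number as covariate (adjusted p = 0.265), so 11 of 20 alternatives lost it. At an unadjusted p under 0.05, 0 of the 64 were higher and 7 lower, where 5.26% and 6.31% of all genes tested were. The median log2 fold change of the 64 was 0.16.

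Markers of other cells also differed between these libraries. The 8 pericyte and smooth muscle markers, all tested, had estimates above 0. Their sum lay between 76.9 and 330.5 CPM among KP libraries and between 118 and 230.3 among KPG1 libraries. It was lowest in KP 5 and highest in KP 1, with 188.9 CPM in KPG1 1. The 7 fibroblast markers, 6 of them tested, were likewise lowest in KP 5 and highest in KP 1. Their sums lay between 82.6 and 277 CPM among KP libraries and between 155 and 266 among KPG1 libraries. Epithelial markers summed to values between 20240 and 44680 CPM among KP libraries and between 38060 and 63060 among KPG1 libraries, highest in KPG1 1, but the surfactant genes Sftpc and Sftpb made up most of that sum, at 39650 and 19980 CPM in KPG1 1. Epcam and Cdh1 had log2 fold changes of 0.052 and -0.10. The keratins Krt8 and Krt18 had lower estimates in KPG1, at -0.67 and -0.87 (adjusted p = 0.0699 and 0.0501), with groups that did not overlap, and KPG1 1 was the lowest library for Krt8 at 764.7 CPM. Their part in the endothelial values was not tested. Leukocyte markers lay between 40.03 and 64.05 CPM among KP libraries and between 28.5 and 58.3 among KPG1 libraries, and Cd3e was at 0 in at least 1 library. Platelets also carry Selp and Vwf. Platelet markers summed to values between 17.2 and 77.4 CPM among KP libraries and between 10.4 and 98.5 among KPG1 libraries. Pf4 made up most of these sums, at 8.48 to 96.6 CPM over all libraries. Itga2b ran from 0.979 to 4.16 CPM, averaging 3.05 in KP and 1.55 in KPG1, and Ppbp from 0.0753 to 1.82 CPM. Gp9 and Gp1ba reached no more than 0.081 CPM in any library. A part of platelets in the values of Selp and Vwf was not tested. Erythroid markers lay between 94.5 and 483 CPM among KP libraries and between 151 and 349 among KPG1 libraries, and mesothelial markers between 87.05 and 326 CPM among KP libraries and between 90.6 and 239 among KPG1 libraries.

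The labels number the samples from 1 to 16, without saying what the number stands for, and the KPG1 numbers lie mostly below those of KP. With that number as a covariate the median log2 fold change of the members was 0.82, 39 of 40 estimates were above 0, 19 of 40 had an unadjusted p under 0.05, as did 9.91% of all genes in that fit, and 0 were called by limma. KP 5, the lowest KP library for most members, has the lowest number among KP (6). KPG1 1, the highest KPG1 library for most members, has the highest number among KPG1 (10). The median of 0.82 therefore cannot be read apart from these libraries. Whether the number marks a batch was not tested. Exons of Egfl7, Nrp1 and Ramp2 overlap another gene on the same strand, and those of Angpt1, Dll4, Egfl7, Eng, Prox1, Selp and Sox17 overlap a gene on the opposite strand, so their counts may hold or lack reads of those genes.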

How the data were processed

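RNA sequencing of CD45-depleted lung tumour fractions was analysed in 5 KP and 5 KPG1 libraries. The authors deposited raw counts, given as whole reads for each Ensembl gene. Per the submitters' processing notes they were made with bcl2fastq 2.17, cutadapt 1.4.2, HISAT2, featureCounts 1.4.4 and build mm10; the methods of the study name another cutadapt version. The library kit was stranded, and the strand setting of the counting is not given in the sources used here. The joint table and the single-library files held the same 390170 values. The table of log2 values computed by the authors was not used.

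Genes were kept by filterByExpr, scaled with TMM factors (edgeR 4.0.16) and tested with voom and limma 3.58.1 (R 4.3.3) on genotype, with Benjamini-Hochberg adjustment over all 16216 genes and a threshold of 0.05. The methods of the study filter on TPM instead. Log2 CPM used a prior count of 2. RPKM used union exon lengths of GENCODE M21. DESeq2 1.42.0 and edgeR's quasi-likelihood test were alternatives, with other filters, factors, weights, a replicate block, the sample number and libraries left out. The fits were checked on simulated counts with known changes, drawn for each gene independently. A shift shared by many genes of a library was not simulated, so the check does not cover it. Members and lists were chosen with earlier results of these data known. Per-library values are given for Pecam1, Cdh5, Kdr, Flt1, Flt4, Tek, Tie1, Nrp1 and Eng, and for the 5 members with the smallest p in each direction; only 2 members were lower. No 2 libraries of a group agreed within sampling noise (chi-square per degree of freedom 54.3 or more over 20 pairs). Nothing in the labels says more of how the libraries of a group are separate than their names, so p-values measure the spread between these samples. Values for the tumour-initiating alleles are not reported here.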

Additional observations from a re-analysis of the deposited data

Results flagged for a closer look

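In 80 sets of 5 libraries (40 members in 2 groups), 1 library stood apart from the rest of its group, where about 4 are expected by chance at 1 in 20. This was Esam, an adhesion molecule of endothelial junctions, in KPG1 1, at a log2 CPM of 7.16 when the other 4 KPG1 libraries lay between 6.25 and 6.31. The gap was 0.943 of the whole range of the group, above Dixon's critical value for 5 libraries. KPG1 1 was also the highest library for 30 of the 40 members.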

How the results depend on the processing

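No member passed an adjusted p of 0.05 in any of the 20 alternatives, and the smallest adjusted p of any member was 0.0563 (Fli1, DESeq2). Of 800 member estimates under the alternatives, 715 kept their direction and 85, in 27 members, did not. The count of genes called, 28, was 548 with DESeq2, 43 without a filter, 228 with a weight per library, 5 with the replicate block, 8 with the sample number and 290 without KP 5 and KPG1 1. With a library left out it was 4 (without KPG1 4) to 294 (without KP 5). The same-numbered libraries did not deviate together (correlations of -0.16 to 0.076 over 5 pairs), so the block carries no pairing; with the replicate block the median of the members was 0.28 and 0 members were called. The median of the members was 0.82 with the sample number, and 0.08 to 0.48 with a library left out. Members whose groups did not overlap numbered 0 to 2 with a library left out: Apln without KP 2, Fli1 without KP 3, and Fli1 and Dll4 without KPG1 5, where 3.30% to 7.84% of all genes did not overlap in these fits. Relative to the core they numbered 0 to 2 (1.29% to 2.89% of all genes), and were 6 without KP 5 and KPG1 1 (4.42%) and 1 with the other core (1.81%). The median SD in KPG1 was 0.34 to 0.65 with a library left out and 0.34 without KP 5 and KPG1 1. Slc2a1 passed the threshold with DESeq2 (-1.04), with a weight per library (-1.13) and without KP 5 and KPG1 1 (-1.15), and ran from -1.14 to -0.92 with a library left out, passing without KP 5. The cause of these changes was not tested.

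Estimates that changed direction (log2 fold change, KPG1 minus KP) were, with edgeR, Vwf -0.0073, Sele 0.031, and with DESeq2, Vwf -0.010, Sele 0.032. With a weight per library they were Pecam1 -0.15, Cdh5 -0.053, Esam -0.17, Cldn5 -0.036, Icam2 -0.32, Emcn -0.13, Flt1 -0.024, Flt4 -0.27, Vegfc -0.15, Tek -0.16, Tie1 -0.25, Ptprb -0.31, Eng -0.18, Ramp2 -0.28, Robo4 -0.18, Sox17 -0.067, Tal1 -0.049, Notch4 -0.14, Vwf -0.55, Selp -0.28, Plvap -0.16, Egfl7 -0.32, Lyve1 -0.22. With the sample number the value was Sele 1.42. Without KP 5 and KPG1 1, chosen after seeing the data, they were Pecam1 -0.23, Cdh5 -0.084, Esam -0.12, Cldn5 -0.082, Icam2 -0.43, Emcn -0.21, Flt1 -0.034, Flt4 -0.33, Vegfc -0.28, Tek -0.22, Tie1 -0.34, Ptprb -0.36, Angpt2 -0.055, Eng -0.27, Ramp2 -0.40, Aplnr -0.099, Robo4 -0.23, Sox17 -0.089, Tal1 -0.12, Notch4 -0.20, Vwf -0.63, Selp -0.32, Plvap -0.22, Egfl7 -0.38, Mmrn2 -0.059, Lyve1 -0.26. With a library left out in turn, the ranges were Esam -0.11 to 0.22, Sele -0.54 to 0.31, Vwf -0.35 to 0.27, Icam2 -0.13 to 0.44, Flt4 -0.15 to 0.25, Vegfc -0.067 to 0.37, Tie1 -0.050 to 0.58, Ptprb -0.17 to 0.27, Ramp2 -0.072 to 0.49, Selp -0.14 to 0.29, Egfl7 -0.15 to 0.24, Lyve1 -0.12 to 0.21, Angpt2 -0.10 to 0.24. The lowest count of any member in a library was 24, and the spread between libraries was larger than counting error.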
